A study of Mus musculus with 12 samples.

Results

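The 10 genes described here encode proteins of the contractile apparatus of smooth muscle and of activated fibroblasts: the actins Acta2 and Actg2, the myosin light chain Myl9, the transgelins Tagln and Tagln2, the calponins Cnn1 and Cnn2, the caldesmon gene Cald1 and the tropomyosins Tpm1 and Tpm2. They were chosen by symbol, and their Ensembl identifiers gave 10 of the 48709 gene rows in each deposited table. The samples were cultured embryonic fibroblasts of C57BL/6 mice (MEFs), grown in medium with 10% serum at 37 °C and 5% CO2, and measured by RNA sequencing. The study set cells labelled TAZKo, for a loss of tafazzin, against isogenic cells labelled WT, each in normoxia or after 24 hours of hypoxia, with 3 samples in each of the 4 groups. Tafazzin, encoded by Taz, remodels the mitochondrial lipid cardiolipin, and it is not the Hippo pathway coactivator of the same short name, which is encoded by Wwtr1. The oxygen level, the way the gene was inactivated, and whether the cells labelled TAZKo are 1 clone or several are not given in the sources used here. Nor do the labels say that the 3 samples of a group came from separate cultures, so p-values measure the spread between these samples, which may be technical.

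Taz was measured first as a check of the labels. Its level was 34.6 ± 2.92 CPM (counts scaled to library size; SD, n = 3) in the libraries labelled WT in normoxia and 42.2 ± 3.18 CPM in those labelled TAZKo. In hypoxia it was 25.1 ± 1.49 CPM in the libraries labelled WT and 33.8 ± 1.15 CPM in those labelled TAZKo. Taz was called higher in the libraries labelled TAZKo in both conditions, by 0.29 ± 0.0786 on the log2 scale in normoxia (SE; edgeR adjusted p = 0.0139) and by 0.43 ± 0.0805 in hypoxia (adjusted p = 0.00112). The normoxia call did not pass without WT normoxia sample 2 or 3 or TAZKo normoxia sample 1 (0.19 to 0.23). This goes against the label of a knockout, so the genotype names WT and TAZKo below stand for the labels of the libraries throughout. A count over the whole gene does not show whether the transcript still encodes a working enzyme.

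Contractile fibroblasts, or myofibroblasts, pull on their surroundings with bundles of actin filaments and myosin. Non-muscle isoforms of these proteins are made by nearly every cell, whereas alpha smooth muscle actin (Acta2), transgelin (Tagln) and calponin 1 (Cnn1) are added as fibroblasts take on the contractile state. Their transcription is driven by serum response factor (SRF), which binds the CArG box and is held active by the actin-sensing cofactors MRTF-A and MRTF-B or, in smooth muscle, by myocardin.

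Total counts ran from 21039451 to 31204510 per library, and 3 counts were worth 0.0927 to 0.15 CPM. Of the groups' libraries, WT normoxia sample 1 stood farthest apart. Its counts differed from those of samples 2 and 3 with a chi-square of 36.74 and 43.53 per degree of freedom, against 5.76 between samples 2 and 3. Sample 1 also stood apart in TAZKo normoxia (8.69 and 10.97, against 2.9) and in WT hypoxia (13.71 and 14, against 3.67). In TAZKo hypoxia the pairs lay at 4.71 to 5.36. Of 10 fibroblast markers, 7 reached 1 CPM in every group (Col1a1, Vim, Pdgfra and Dcn among them), while Fap had 0 counts in all 12 libraries, Lum at most 2 and Thy1 at most 8. In the normoxia groups their summed level was 4395 to 5245 CPM (WT) and 3566 to 3740 CPM (TAZKo), and in the hypoxia groups 6513 to 7467 and 5121 to 5496 CPM. The lower sums in TAZKo came from Col1a1 (2835 ± 402 against 1153 ± 14.3 CPM in normoxia). Of the 7 markers tested, 4 were called higher in TAZKo in normoxia (Vim, Pdgfra, Pdgfrb and S100a4) and 2 lower (Col1a1 and Col1a2). Of all genes, 15.6% were called higher and 14.9% lower in that comparison. Of 10 mature smooth muscle markers, 4 reached 1 CPM in every group (sums of 172 to 200, 135 to 146, 146 to 169 and 124 to 129 CPM in the same order). These were Smtn, which was lower in TAZKo in normoxia (160 ± 13.3 against 98.3 ± 2.36 CPM) and carried the sums, and Mylk, Des and Synm, which were called higher. Of the 5 smooth muscle markers tested, 3 were called higher and 1 lower, beside the same 15.6% and 14.9% of all genes. The defining markers were near 0: Myh11 had at most 10 counts in a library, Lmod1 at most 6, Myocd at most 4, and Itga8 and Kcnmb1 at most 2. Synpo2 had 1 to 37 counts. Its mean went with hypoxia from 0.107 to 0.963 CPM in WT and from 0.0491 to 0.528 CPM in TAZKo. Pericyte markers summed to 89.6 to 105, 66.7 to 71.4, 170 to 185 and 108 to 126 CPM, carried by Mcam and Notch3 with Rgs5 at 7 counts or fewer. The epithelial list summed to 226 to 292, 150 to 166, 554 to 567 and 402 to 436 CPM, carried by Krt18 and Krt19, and Epcam had at most 17 counts. Striated muscle (1.64 to 13.3 CPM), endothelial (11.4 to 33.8 CPM) and macrophage and blood lists (10 to 24.3 CPM) were low. Myod1, Myf5 and Adgre1 were at 0 and Cdh5 had at most 2 counts. Tnnt2 carried the striated sum, going with hypoxia from a mean of 1.05 to 8.26 CPM in WT and from 2.05 to 11.7 CPM in TAZKo. Tek and Egfl7 carried the endothelial sum. In normoxia Tek was at 16.0 CPM in WT and 4.91 CPM in TAZKo, and Egfl7 at 12.7 and 13.8 CPM. Cd68, Csf1r and Cd14 carried the last sum, and all 3 were called higher with hypoxia in both genotypes (26% and 22.2% of all genes). Several of these sums moved with genotype or hypoxia, and their part in the results below was not tested. In bulk RNA fewer cells of a type and less RNA per cell cannot be told apart.

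RefSeq promoter windows on GRCm38.p6, from 250 bases before to 50 bases after a gene's start, were found for 8 of the 10 genes, Tagln and Actg2 being without one. The 250 bases before the start are shown for Myl9 and Cnn2, which are the genes with an exact match to the consensus CArG box in their windows, and for Acta2, the classical marker of the contractile state. Only exact matches were counted, so that CArG elements departing from the consensus, which Acta2 is known to have, were not searched for. Capitals mark an exact CArG box, searched on both strands, or the letters CATTCC on either strand (GGAATG on the strand shown), the core of the element bound by TEAD factors, and no window shown holds both. The windows lie at chr2:156775214-156775463 (plus strand), chr10:79988350-79988599 (plus strand) and chr19:34255374-34255623 (minus strand), and are printed 5′ to 3′.
Myl9: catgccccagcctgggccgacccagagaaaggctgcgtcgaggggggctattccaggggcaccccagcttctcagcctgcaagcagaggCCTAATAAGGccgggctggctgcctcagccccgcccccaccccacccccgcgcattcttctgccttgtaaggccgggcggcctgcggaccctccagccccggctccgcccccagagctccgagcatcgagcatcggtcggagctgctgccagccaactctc
Cnn2: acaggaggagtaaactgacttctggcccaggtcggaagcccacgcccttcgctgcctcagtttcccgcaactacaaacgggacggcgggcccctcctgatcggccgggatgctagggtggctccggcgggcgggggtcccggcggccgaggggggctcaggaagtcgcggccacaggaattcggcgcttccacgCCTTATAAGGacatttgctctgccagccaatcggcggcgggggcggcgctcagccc
Acta2: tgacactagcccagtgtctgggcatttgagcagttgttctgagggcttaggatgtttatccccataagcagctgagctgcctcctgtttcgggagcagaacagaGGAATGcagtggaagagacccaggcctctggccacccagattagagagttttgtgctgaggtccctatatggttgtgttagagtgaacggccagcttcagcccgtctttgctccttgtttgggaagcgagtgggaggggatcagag
The CArG box of Myl9 begins 161 bases before the start and that of Cnn2 begins 56 bases before it. Of 32851 promoter windows of the same length, 1.63% hold an exact CArG box and 14.7% hold CATTCC on either strand. Besides Acta2, the windows of Tagln2, Tpm1 and the upstream start of Cald1 hold CATTCC.

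On a per-length scale (CPM per kb of the gene's exons), Tagln2 and the tropomyosins, caldesmon and Cnn2 were the abundant members, and Tagln, Cnn1 and Actg2 the scarce ones. The rows of Tpm1, Tpm2 and Cald1 pool muscle and non-muscle isoforms, which gene counts do not separate. In WT normoxia Tagln2 stood at 195 ± 10.0 and Tpm1 at 136 ± 4.4 CPM per kb, above 99.3% and 98.7% of the 14408 genes tested. Tpm2 (56.5 ± 7.43), Cald1 (51.7 ± 7.35) and Cnn2 (43.5 ± 4.19 CPM per kb) followed, and neighbours in that trio overlapped between samples. Myl9 at 16.2 ± 1.71 and Acta2 at 13.1 ± 1.19 CPM per kb came next and did not overlap. Tagln stood at 1.5 ± 0.14 and Cnn1 at 0.181 ± 0.0116 CPM per kb, above 28.1% and 6.9% of the genes tested. The level of Tagln is uncertain, since 62.4% of its exon bases are overlapped by another gene on the opposite strand. Actg2, the enteric smooth muscle actin, was last at 0.0344 ± 0.0303 CPM per kb. Tagln2 and Tpm1 change places when the longest transcript is used as the length, and so do Tpm2 and Cald1. In WT normoxia the markers of the contractile state Acta2, Tagln and Cnn1 were therefore measured at low to moderate levels, and Actg2 was close to absent. The high rows of Tpm1, Tpm2 and Cald1 pool isoforms, so they do not show whether the muscle forms were high. The order differed between genotypes at the middle ranks: in TAZKo normoxia Myl9, at 2.27 ± 0.516 CPM per kb, stood below Acta2 at 15.7 ± 1.69, and in TAZKo hypoxia it stood at 3.72 ± 0.108 against 8.65 ± 0.272.

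**Figure D1:**
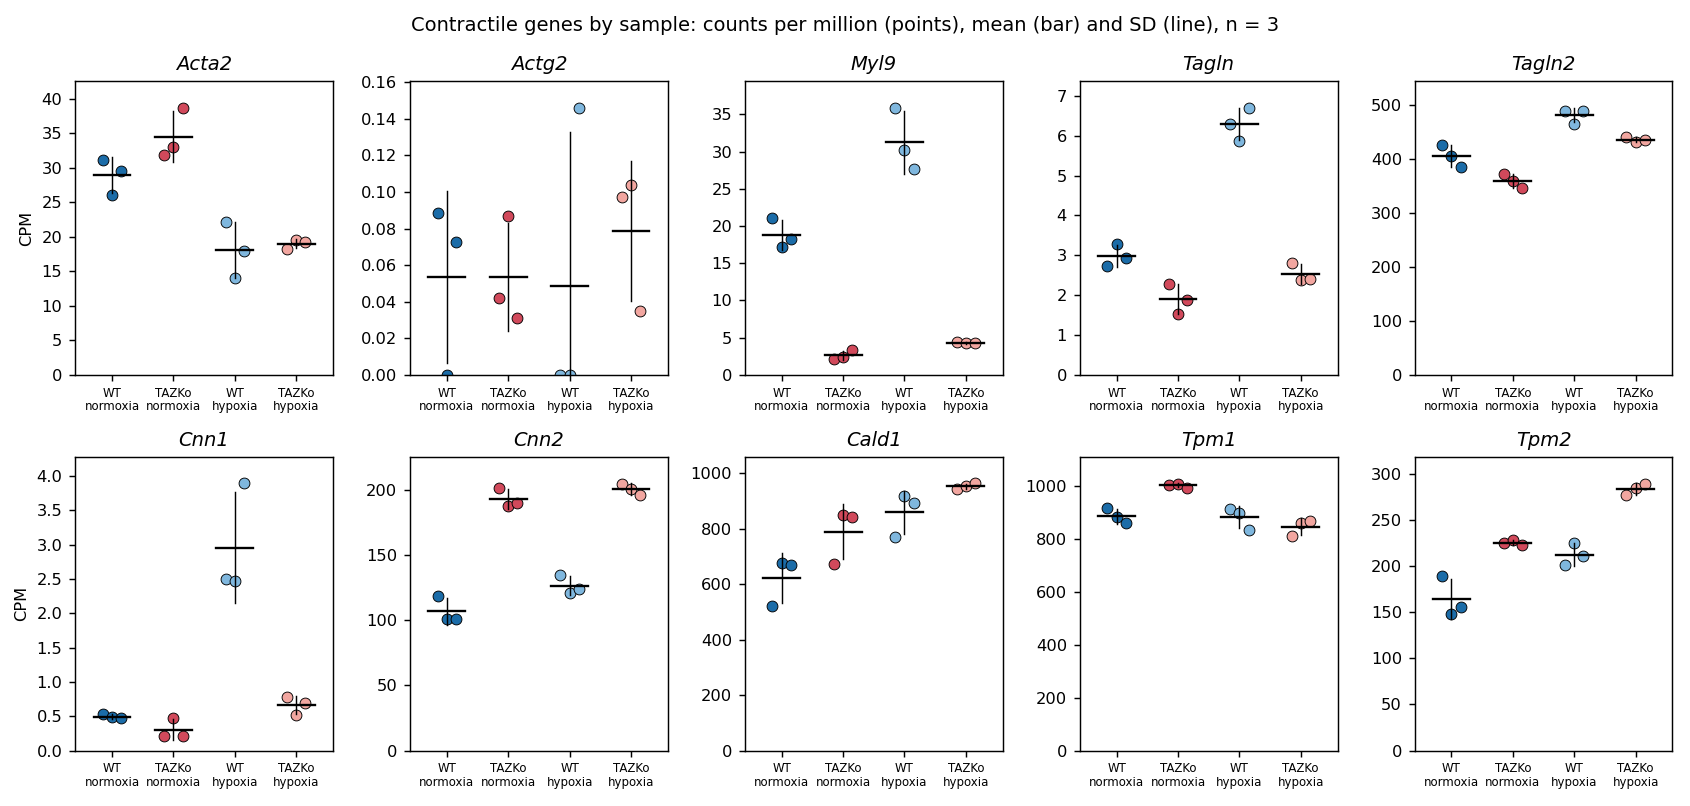
Level of each contractile gene in every library, in CPM (vertical axes start at 0 and differ between panels), by group on the horizontal axis. Points are single libraries, horizontal bars the mean and vertical lines the SD of 3 libraries. Myl9 is at 2.15 to 4.47 CPM in the 6 libraries labelled TAZKo and at 17.2 to 35.9 CPM in the 6 labelled WT.

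Of the 10 genes, 9 passed the filter on low counts and were tested by edgeR's quasi-likelihood test with Benjamini-Hochberg adjustment over all 14408 genes, the source of every adjusted p below. Between genotypes in normoxia, 7 of the 9 passed the threshold of 0.05, 4 of them higher in TAZKo and 3 lower, where 30.4% of all genes tested passed (15.6% higher, 14.9% lower). This count was 4 without TAZKo normoxia sample 3. In hypoxia 5 of 9 passed, 2 higher and 3 lower, against 32.8% of all genes (15.8% higher, 16.9% lower). Between hypoxia and normoxia, 8 of 9 passed in the libraries labelled WT (7 higher, 1 lower in hypoxia, against 51% of all genes, 26% higher and 25% lower) and 7 of 9 in those labelled TAZKo (5 higher, 2 lower, against 43.8%, 22.2% higher and 21.6% lower). Groups did not overlap for 7, 7, 8 and 8 of the 9 genes in these 4 comparisons, beside 42.8%, 50%, 54.6% and 61.1% of all genes. The median log2 difference over the 9 genes was 0.18, -0.06, 0.37 and 0.28, beside 0.01, -0.008, 0.009 and -0.009 over all genes. The genes did not move as a block between genotypes: Myl9 and Tagln were lower in the libraries labelled TAZKo in both conditions, and Cnn2 and Tpm2 were higher in both. Each condition enters more than 1 comparison, so the comparisons share libraries.

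**Figure D2:**
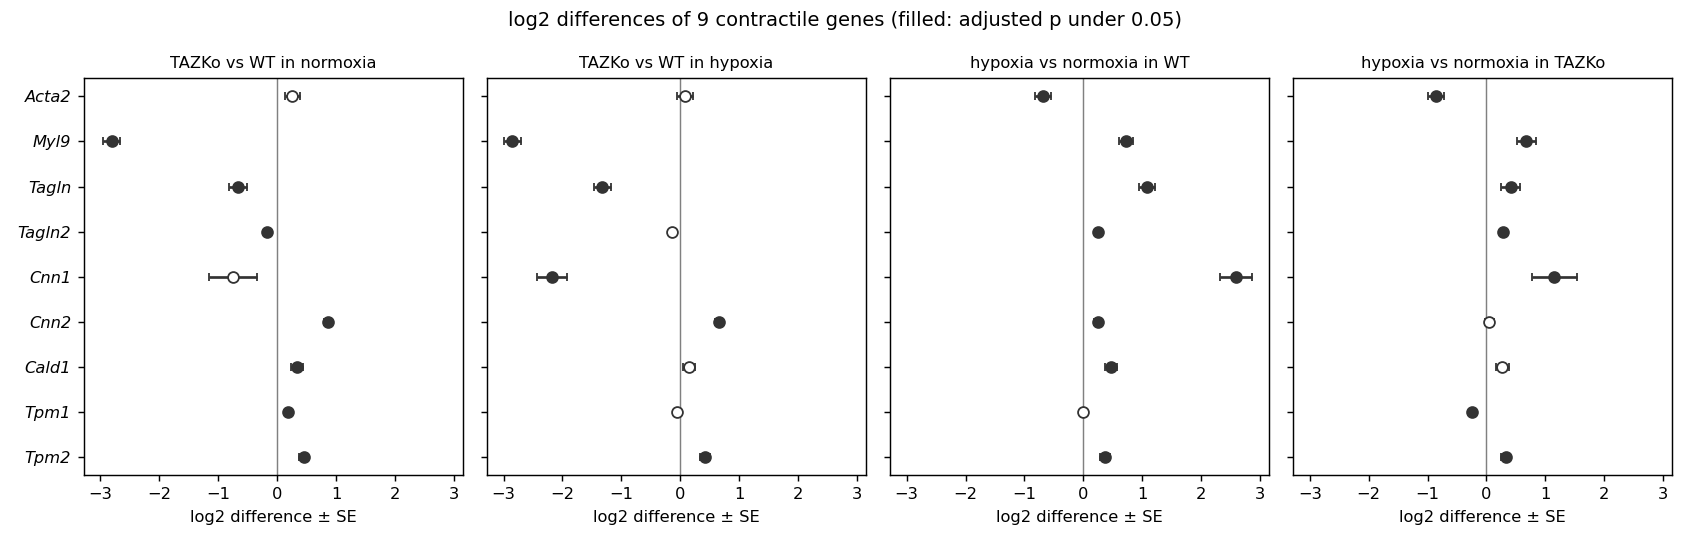
log2 difference of 9 contractile genes in the 4 comparisons of groups, with bars of 1 SE from the model fit and filled points where the adjusted p was under 0.05. Myl9 lies at -2.81 and -2.85 between the genotypes, the lowest of the 9 in both conditions, and Cnn1 at 2.59 is the highest for hypoxia in the libraries labelled WT.

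Acta2 (ENSMUSG00000035783, chr19:34241090-34255590) encodes alpha smooth muscle actin, the standard marker of myofibroblasts. Its level in normoxia was 31.1, 26.0 and 29.6 CPM in the libraries labelled WT and 31.8, 33.0 and 38.7 CPM in those labelled TAZKo. After hypoxia it was 22.2, 14.1 and 17.9 CPM in WT and 18.3, 19.5 and 19.2 CPM in TAZKo. Every hypoxia library lay below every normoxia library, whichever the genotype label. The difference between hypoxia and normoxia was -0.68 ± 0.133 on the log2 scale (SE; adjusted p = 0.000774) in WT and -0.86 ± 0.131 (adjusted p = 0.000138) in TAZKo. Acta2 thus fell 1.6-fold and 1.82-fold in hypoxia, and it was the member that fell in WT. Between genotypes the difference was 0.26 ± 0.128 in normoxia (adjusted p = 0.148), where the groups did not overlap, and 0.08 ± 0.135 in hypoxia (adjusted p = 0.711), where they did, and without WT hypoxia sample 2 the latter was -0.08. Over all 492 tested genes of chromosome 19 the median genotype difference was -0.27 in normoxia and -0.28 in hypoxia.

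Actg2 (ENSMUSG00000059430, chr6:83512905-83536265), the gamma smooth muscle actin of gut and bladder muscle, had 0 to 4 counts in a library and 18 in all 12 together. At this depth no difference was detectable, and no fold is given. The cytoplasmic Actb, by comparison, stood at 2156 ± 19.9 CPM in WT normoxia. Per kb of exon, Acta2 made up 1.61 ± 0.155% of the actin transcripts in WT in normoxia and 1.01 ± 0.273% after hypoxia. In TAZKo it made up 1.79 ± 0.118% and 1.11 ± 0.0494%. These shares are nominal, since 56.7% of the 50-base words of Actg1 and 14.2% of those of Actb also occur in other genes or pseudogenes, and the handling of such reads is not given in the sources used here.

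Myl9 (ENSMUSG00000067818, chr2:156775420-156781658) encodes the regulatory light chain of smooth muscle myosin, whose phosphorylation starts contraction. It carried the largest genotype difference of the 9 genes. In normoxia it was at 21.1, 17.2 and 18.2 CPM in the libraries labelled WT and at 2.15, 2.47 and 3.31 CPM in those labelled TAZKo. In hypoxia the values were 35.9, 30.2 and 27.7 CPM against 4.47, 4.25 and 4.25 CPM. The highest library labelled TAZKo, in either condition, was below the lowest labelled WT. Myl9 was 6.99-fold lower in TAZKo in normoxia (log2 difference -2.81 ± 0.149, adjusted p = 1.48e-08) and 7.21-fold lower in hypoxia (-2.85 ± 0.139, adjusted p = 6.71e-09). It rose in hypoxia in both genotypes, by 0.73 ± 0.121 on the log2 scale in WT (adjusted p = 0.000205) and by 0.68 ± 0.169 in TAZKo (adjusted p = 0.00487). None of its 50-base words occurred in another gene, and the median genotype difference over the 1127 tested genes of chromosome 2 was 0.03 in normoxia and 0.02 in hypoxia.

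The paralogs of Myl9, Myl12a and Myl12b, encode the regulatory light chains of non-muscle myosin and were far more abundant. Among the transcripts of the 3 genes per kb of exon, Myl9 made up 9.54 ± 0.791% in WT normoxia and 1.47 ± 0.306% in TAZKo normoxia. In hypoxia its share was 13 ± 0.993% in WT and 2.17 ± 0.0588% in TAZKo. The genotype differences of the paralogs did not pass in either condition. Myl12a stood at 379 ± 12.2 CPM in WT and 381 ± 7.08 CPM in TAZKo in normoxia, and at 472 ± 21.9 and 444 ± 1.23 CPM in hypoxia. Of the 50-base words of Myl12a and Myl12b, 29.6% and 33% are shared with other genes, which makes the shares uncertain but does not touch the counts of Myl9 itself.

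**Figure D3:**
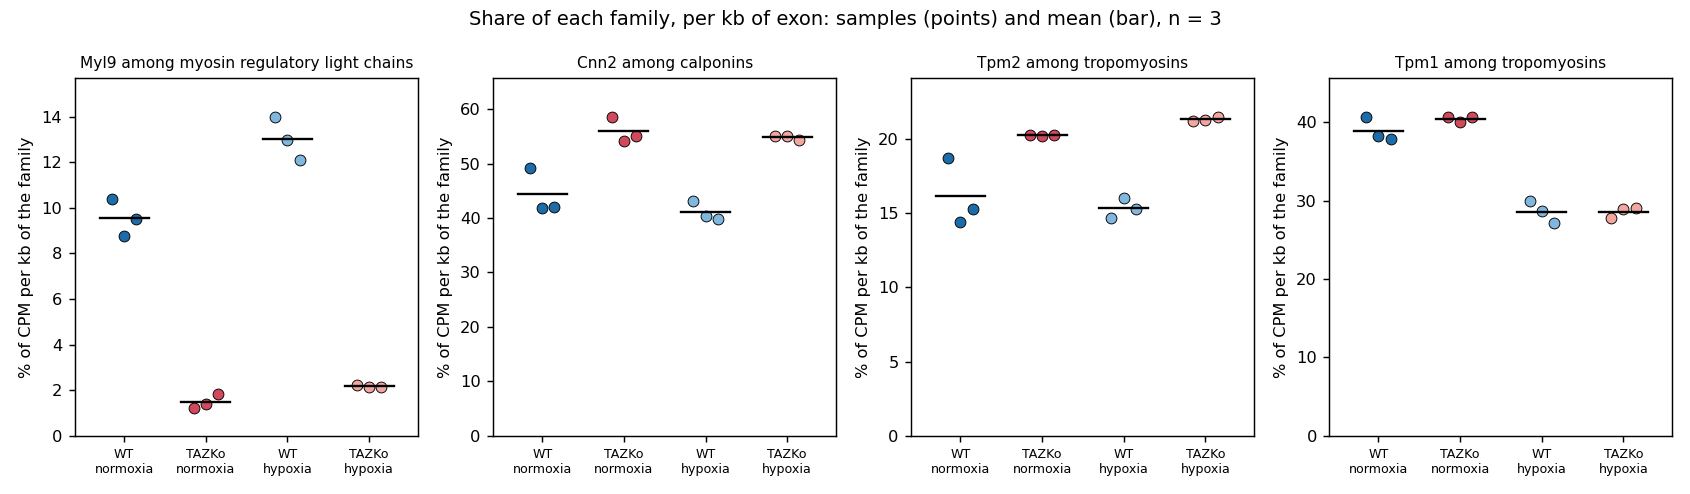
Share of 4 contractile genes in the summed level of their gene family (vertical axes, percent of CPM per kb of exon, from 0), by group, with a point per library and a bar at the mean of 3. The Myl9 share is 1.22 to 2.23% in the 6 libraries labelled TAZKo and 8.77 to 14% in the 6 labelled WT, while the Cnn2 share is 54.1 to 58.6% against 39.8 to 49.1%.

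Tagln (ENSMUSG00000032085, chr9:45929619-45936058) encodes transgelin, or SM22 alpha, an actin-bundling protein that is an early marker of smooth muscle differentiation. Its normoxia level was 2.74, 3.29 and 2.93 CPM in the libraries labelled WT and 2.27, 1.52 and 1.89 CPM in those labelled TAZKo. With hypoxia it reached 6.3, 5.88 and 6.7 CPM in WT but 2.82, 2.39 and 2.4 CPM in TAZKo. The WT hypoxia libraries stood above all others, and the TAZKo hypoxia libraries stood within or below the range of WT normoxia. Tagln was lower in TAZKo by 0.66 ± 0.156 on the log2 scale in normoxia (log2 difference -0.66, adjusted p = 0.00587) and by 1.32 ± 0.139 in hypoxia (log2 difference -1.32, adjusted p = 9.8e-06). Its hypoxia difference was 1.08 ± 0.137 in WT (adjusted p = 2.13e-05) and 0.41 ± 0.158 in TAZKo (adjusted p = 0.04999). The last value was at the edge of the threshold and did not pass in 10 of 12 fits that each left out 1 library. Tagln counts are uncertain for another reason: 62.4% of its exon bases are overlapped on the opposite strand by ENSMUSG00000111521 and 5.43% by Pcsk7, and the library kit does not mark the strand, so reads of these transcripts cannot be told apart.

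Tagln2 (ENSMUSG00000026547, chr1:172500047-172507380) encodes the transgelin of non-muscle cells and made up at least 98.4% of the transgelin transcripts per kb of exon in every library. In normoxia it was at 426, 405 and 385 CPM in the libraries labelled WT and 372, 360 and 346 CPM in those labelled TAZKo. Its hypoxia values were 489, 466 and 490 CPM in WT and 441, 431 and 436 CPM in TAZKo. The groups did not overlap in any of the 4 comparisons, but the differences were small. Hypoxia raised it by 0.25 ± 0.0542 on the log2 scale in WT (adjusted p = 0.00167) and by 0.28 ± 0.0543 in TAZKo (adjusted p = 0.000984). The WT value did not pass with library size alone (0.14, adjusted p = 0.0525) or with no filter on low counts (0.17, adjusted p = 0.068). The genotype difference was -0.17 ± 0.0543 in normoxia (adjusted p = 0.0277) and -0.14 ± 0.0542 in hypoxia (adjusted p = 0.0574). The first did not pass without TAZKo normoxia sample 3 (-0.18, adjusted p = 0.0519), and the second passed without WT normoxia sample 1 (-0.14, adjusted p = 0.0164). As a share of the transgelins, Tagln made up 0.768 ± 0.09% (normoxia) and 1.35 ± 0.0554% (hypoxia) in WT, against 0.546 ± 0.0988% and 0.605 ± 0.0518% in TAZKo.

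Cnn1 (ENSMUSG00000001349, chr9:22099216-22109630) encodes calponin 1, which binds actin and slows myosin, and is a late marker of smooth muscle. It was scarce, with 5 to 107 counts in a library. Normoxia values were 0.531, 0.483 and 0.471 CPM in the libraries labelled WT and 0.21, 0.477 and 0.216 CPM in those labelled TAZKo. In hypoxia they were 2.5, 2.47 and 3.89 CPM in WT and 0.778, 0.519 and 0.697 CPM in TAZKo. The 3 WT hypoxia libraries stood apart from all the others. Cnn1 rose 6.01-fold with hypoxia in WT (log2 difference 2.59 ± 0.276, adjusted p = 4.02e-06), the largest hypoxia difference among the 9 genes, and 2.22-fold in TAZKo (1.15 ± 0.38, adjusted p = 0.0246). The rise in TAZKo rests on 5 to 11 counts a library in normoxia, and it did not pass when TAZKo normoxia sample 1 or 3 or TAZKo hypoxia sample 1 or 3 was left out (0.90 to 1.07). In hypoxia Cnn1 was 4.54-fold lower in TAZKo (-2.18 ± 0.258, adjusted p = 2.7e-05), and in normoxia, where the groups overlapped, the difference was -0.75 ± 0.407 (adjusted p = 0.188).

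Cnn2 (ENSMUSG00000004665, chr10:79988584-79996062) encodes calponin 2, the form of fibroblasts and other non-muscle cells, and it went the other way. In normoxia it was at 119, 101 and 101 CPM in the libraries labelled WT and at 202, 188 and 190 CPM in those labelled TAZKo. In hypoxia the values were 135, 121 and 124 CPM in WT and 205, 201 and 196 CPM in TAZKo. All 6 libraries labelled TAZKo were above all 6 labelled WT. Cnn2 was 1.81-fold higher in TAZKo in normoxia (log2 difference 0.86 ± 0.0714, adjusted p = 1.1e-06) and 1.58-fold higher in hypoxia (0.66 ± 0.0711, adjusted p = 1.18e-05). Hypoxia went with a difference of 0.25 ± 0.0713 in WT (adjusted p = 0.0105), which did not pass when WT normoxia sample 2 or 3 or WT hypoxia sample 1 or 3 was left out (0.15 to 0.21), and of 0.05 ± 0.0704 in TAZKo (adjusted p = 0.584). Genes of chromosome 10 as a whole leaned the same way between genotypes: the median over 676 tested genes was 0.31 in normoxia and 0.29 in hypoxia, and 60.1% and 52.5% of them were called. The difference of Cnn2 was larger than these medians, and the part of its chromosome in it was not tested. Among the calponins per kb of exon, Cnn2 made up 44.3 ± 4.13% in WT and 55.9 ± 2.37% in TAZKo in normoxia, and 41.1 ± 1.78% and 54.8 ± 0.417% in hypoxia, with Cnn3 as nearly all of the rest. The counts of Cnn3 are uncertain, as 25.5% of its 50-base words occur elsewhere.

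Cald1 (ENSMUSG00000029761, chr6:34598500-34775473) encodes caldesmon, which holds actin filaments back from myosin. Its normoxia values were 520, 677 and 670 CPM in the libraries labelled WT and 674, 850 and 842 CPM in those labelled TAZKo. In hypoxia they were 771, 916 and 892 CPM in WT and 943, 952 and 963 CPM in TAZKo. Sample 1 was the lowest of its group in all 4 groups, and the normoxia groups overlapped. Cald1 was higher in hypoxia in WT by 0.47 ± 0.108 on the log2 scale (adjusted p = 0.00257), and the difference in TAZKo was 0.27 ± 0.108 (adjusted p = 0.0554). The genotype difference was 0.34 ± 0.108 in normoxia (adjusted p = 0.028) and 0.15 ± 0.108 in hypoxia (adjusted p = 0.327). Without WT normoxia sample 1, the library that stood farthest apart, the normoxia value was 0.23 (adjusted p = 0.063). This normoxia difference did not pass in 8 of 12 fits that each left out 1 library. The hypoxia value in TAZKo passed without that same library (0.27, adjusted p = 0.00993).

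Tropomyosins coil along actin filaments and set which myosins and other proteins may bind. Tpm1 (ENSMUSG00000032366, chr9:67022590-67049406) was at 915, 881 and 859 CPM in the normoxia libraries labelled WT and 1003, 1008 and 993 CPM in those labelled TAZKo. In hypoxia it was at 911, 899 and 834 CPM in WT and 810, 860 and 869 CPM in TAZKo. The TAZKo normoxia libraries stood above all the others, and the other 3 groups overlapped. The genotype difference was 0.18 ± 0.0534 in normoxia (adjusted p = 0.0217), which did not pass in 9 of 12 fits that each left out 1 library (0.12 to 0.15), and -0.06 ± 0.0534 in hypoxia (adjusted p = 0.443). With hypoxia Tpm1 fell in TAZKo (log2 difference -0.24 ± 0.0535, adjusted p = 0.00231), while in WT the difference was -0.01 ± 0.0534 (adjusted p = 0.94).

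Tpm2 (ENSMUSG00000028464, chr4:43514711-43523765) encodes beta-tropomyosin, a form that muscle and fibroblasts share. It was at 189, 148 and 156 CPM in the normoxia libraries labelled WT and 225, 228 and 223 CPM in those labelled TAZKo. In hypoxia it was at 201, 225 and 211 CPM in WT and 277, 284 and 289 CPM in TAZKo. Each change of label or condition moved the groups apart without overlap. Tpm2 was higher in TAZKo by 0.45 ± 0.0789 on the log2 scale in normoxia (adjusted p = 0.000669) and by 0.42 ± 0.0787 in hypoxia (adjusted p = 0.00117). It was higher in hypoxia by 0.37 ± 0.079 in WT (adjusted p = 0.00149) and by 0.33 ± 0.0785 in TAZKo (adjusted p = 0.00376). Over the 916 tested genes of chromosome 4 the median genotype difference was 0.13 in normoxia and 0.13 in hypoxia. The part of the chromosome in the genotype difference of Tpm2 was not tested. Among the 4 tropomyosin genes per kb of exon, Tpm2 made up 16.1 ± 2.25% in WT and 20.3 ± 0.0931% in TAZKo in normoxia, and 15.3 ± 0.658% and 21.3 ± 0.172% in hypoxia. The share of Tpm1 in WT was 38.9 ± 1.43% before and 28.6 ± 1.34% after hypoxia, and in TAZKo 40.4 ± 0.352% and 28.6 ± 0.666%. The cytoskeletal Tpm4 rose by 0.82 ± 0.0657 on the log2 scale with hypoxia in WT and by 0.67 ± 0.0656 in TAZKo (adjusted p = 2.75e-07 and 2.91e-06). Of the 50-base words of Tpm3 and Tpm4, 17% and 16.1% occur elsewhere, so these shares too are nominal.

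Whether hypoxia acted differently in the 2 genotypes was tested by the interaction, the log2 hypoxia difference in TAZKo minus that in WT. None of the 9 genes passed at an adjusted p of 0.05 with edgeR, and 0 passed with DESeq2, beside 2.43% of all genes tested with edgeR (0.722% positive, 1.71% negative). At an unadjusted p under 0.05 there were 3 genes, beside 15.8% of all genes. These were Tagln at -0.66 ± 0.211 (adjusted p = 0.132), Cnn1 at -1.44 ± 0.506 (adjusted p = 0.177) and Tpm1 at -0.24 ± 0.0756 (adjusted p = 0.135). The value for Cnn2 was -0.19 ± 0.1, for Cald1 -0.19 ± 0.152 and for Acta2 -0.18 ± 0.186. Those for Myl9, Tpm2 and Tagln2 were -0.05 ± 0.212, -0.04 ± 0.111 and 0.03 ± 0.0767. With 8 of 9 values below 0, the median was -0.19, against -0.016 over all genes. The larger WT responses of Tagln and Cnn1 are therefore values that the test of the difference did not call.

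**Figure D4:**
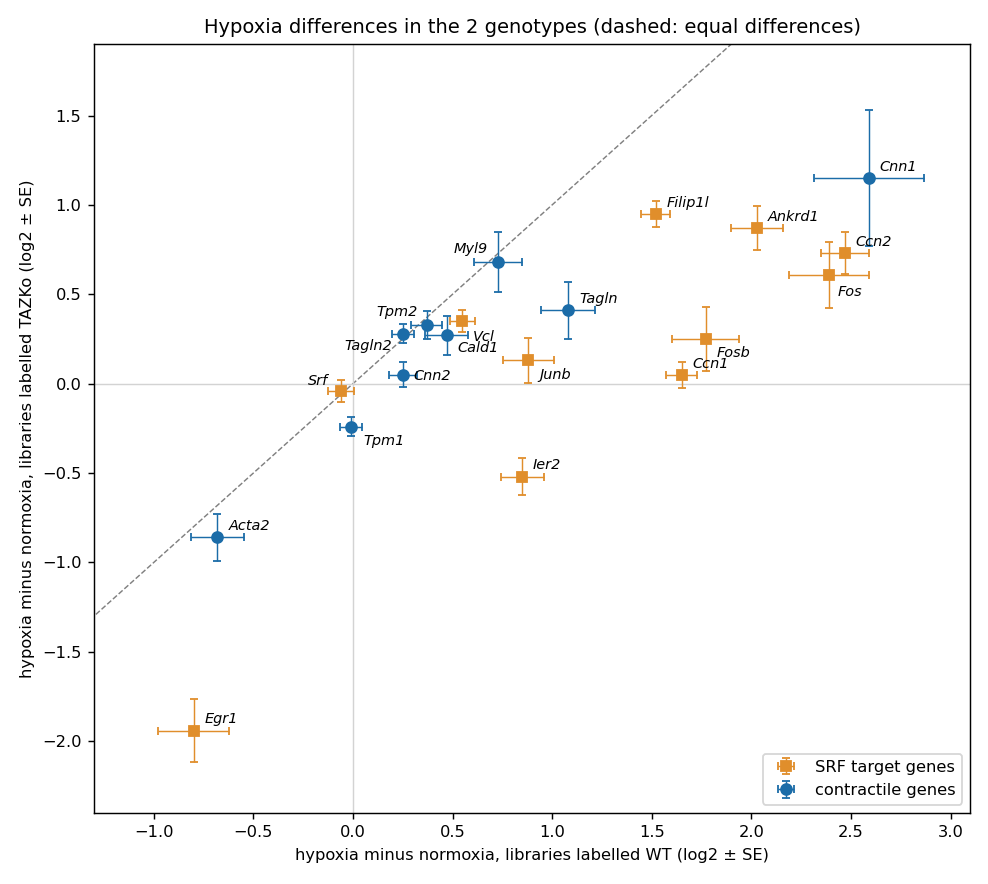
log2 difference between hypoxia and normoxia in the libraries labelled WT (horizontal axis) and TAZKo (vertical axis) for 9 contractile genes (circles) and 11 SRF target genes (squares), with bars of 1 SE. The dashed line marks equal differences. Cnn1 (2.59 and 1.15) and Tagln (1.08 and 0.41) lie below it, Myl9 (0.73 and 0.68) lies near it, and of the SRF targets Fos, Ccn2, Ccn1, Fosb and Ier2 lie farthest below.

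SRF and its listed cofactors and partners were counted next, without regard to whether each activates or represses. Of 9 genes of SRF and its cofactors, 8 were tested, and Myocd, the smooth muscle cofactor myocardin, was not, with at most 4 counts. Srf was at 72.7 ± 4.68 CPM in WT and 91.5 ± 1.41 CPM in TAZKo in normoxia, and at 69.7 ± 0.785 and 89.2 ± 5.43 CPM in hypoxia. It was higher in TAZKo by 0.33 ± 0.0625 on the log2 scale (adjusted p = 0.00116) and by 0.35 ± 0.0627 (adjusted p = 0.000717), and its hypoxia differences were -0.06 and -0.04 (adjusted p = 0.461 and 0.663). The ternary complex factor Elk3 was also higher in TAZKo, by 0.36 ± 0.0621 and 0.25 ± 0.0615 (adjusted p = 0.000611 and 0.00608). Fhl2, a LIM protein that binds SRF, was higher in normoxia by 0.7 ± 0.0753 (adjusted p = 1.17e-05). Genotype differences of Mrtfa (-0.07 and -0.04), Mrtfb (0.08 and -0.09), Elk1 (0.03 and 0.09), Elk4 (0.05 and -0.11) and Scai (0.14 and -0.04) did not pass. Between genotypes 3 of 8 were higher in normoxia and 2 in hypoxia (15.6% and 15.8% of all genes), and none was lower. With hypoxia, where 26% of all genes were higher in WT and 22.2% in TAZKo, 3 of 8 were higher in WT (Fhl2, Elk3 and Mrtfb) and 2 in TAZKo (Fhl2 and Elk3).

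The 11 immediate early and cytoskeletal targets of SRF, such as Fos, Egr1, Ccn1 and Ccn2, include short-lived transcripts that follow SRF activity closely, and several are targets of YAP and TEAD as well. In normoxia 9 of the 11 were higher in the libraries labelled TAZKo and none was lower (15.6% of all genes were higher). In hypoxia 1 was higher and 6 were lower (15.8% and 16.9% of all genes). The 11 include Srf itself, which was also counted with its cofactors above. Srf is the 1 higher in hypoxia and is among the 9 higher in normoxia. Hypoxia raised 9 and lowered 1 in WT (26% and 25% of all genes), and raised 5 and lowered 2 in TAZKo (22.2% and 21.6%). The interaction called 9 of 11, all negative, where 1.71% of all genes were called negative. Ccn1, a matricellular protein, went from 132 ± 8.34 CPM in normoxia to 416 ± 45.4 CPM in hypoxia in WT, and was at 248 ± 6.89 and 257 ± 1.23 CPM in TAZKo. It was thus higher in TAZKo by 0.9 ± 0.0748 in normoxia (adjusted p = 9.98e-07) and lower by 0.7 ± 0.074 in hypoxia (log2 difference -0.7, adjusted p = 1.07e-05). Ccn2, the connective tissue growth factor of fibrosis, rose with hypoxia by 2.47 ± 0.12 in WT and by 0.73 ± 0.116 in TAZKo (adjusted p = 1.87e-09 and 0.000213). Beside these, Myl9 was lower in TAZKo in both conditions and Cnn2 higher in both, with no change of sign between conditions. The interaction calls for Egr1 and Junb did not pass in 8 and 10 of 12 fits that each left out 1 library.

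Other parts of the contractile pathway were counted from lists in the same way, to be read against the shares of all genes called. Between genotypes these were 30.4% in normoxia (15.6% higher, 14.9% lower) and 32.8% in hypoxia (15.8% higher, 16.9% lower). For hypoxia they were 51% in WT (26% higher, 25% lower) and 43.8% in TAZKo (22.2% higher, 21.6% lower). Of 8 genes on the myosin list, which includes the light chain kinase gene Mylk, 7 were tested. In each condition 3 were higher and 1 lower in TAZKo. The essential light chain Myl6 came first (0.63 ± 0.0597 in normoxia and 0.43 ± 0.0595 in hypoxia, adjusted p = 3.37e-06 and 0.000103). Hypoxia raised 3 and lowered 3 in WT, led by Myl12a (0.32 ± 0.0515, adjusted p = 0.000177), and raised 2 and lowered 1 in TAZKo, where the non-muscle heavy chain Myh10 fell (-0.38 ± 0.0602, adjusted p = 0.000176).

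Of 24 actin crosslinkers and focal adhesion genes, 5 were higher and 3 lower in TAZKo in normoxia, and 3 and 6 in hypoxia, shares near the 30.4% and 32.8% of all genes. Fhl1, a LIM protein of muscle, was the first of them in both conditions: it was at 40.8 ± 1.66 CPM in WT and 16.9 ± 0.896 CPM in TAZKo in normoxia and at 64.2 ± 2.38 and 18.4 ± 0.917 CPM in hypoxia (log2 differences -1.27 ± 0.0678 and -1.8 ± 0.0675, adjusted p = 1.48e-08 and 7.66e-10). Hypoxia raised 12 and lowered 3 of the 24 in WT, where 26% of all genes were higher and 25% lower. It raised 8 and lowered 2 in TAZKo, beside 22.2% and 21.6% of all genes. Beyond the contractile genes themselves, the actin list gave 1 call of 2 tested between genotypes, Actg1, at 1.63 ± 0.124 in normoxia and 0.54 ± 0.136 in hypoxia (adjusted p = 4.47e-07 and 0.00778), from levels of 2.92 ± 0.352 CPM in WT and 8.97 ± 0.19 CPM in TAZKo in normoxia and with the shared words given above. In that list hypoxia changed 0 of 2 in WT and Actg1 in TAZKo (-1.2 ± 0.118, adjusted p = 3.02e-06). Of the 3 tested tropomyosin, calponin and transgelin genes outside the 10, Cnn3 was higher in TAZKo in normoxia (0.19 ± 0.0626, adjusted p = 0.0368, not past the threshold in 11 of 12 fits without 1 library) and Tpm4 lower in hypoxia (-0.24 ± 0.0652, adjusted p = 0.013). With hypoxia 2 of these 3 rose in WT and 1 in TAZKo.

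Myofibroblasts also lay down matrix under the drive of TGF-beta, and these genes were counted beside the contractile ones, again against 30.4%, 32.8%, 51% and 43.8% of all genes called in the same comparisons. Split into higher and lower, those shares were 15.6% and 14.9%, 15.8% and 16.9%, 26% and 25%, and 22.2% and 21.6%. Of 12 matrix genes 11 were tested. In normoxia 3 were higher and 5 lower in TAZKo, led by Col1a1 at 2835 ± 402 CPM in WT and 1153 ± 14.3 CPM in TAZKo (log2 difference -1.3 ± 0.1, adjusted p = 5.34e-07). In hypoxia 1 was higher and 5 were lower. Hypoxia raised 7 and lowered 3 in WT and raised 4 and lowered 1 in TAZKo. Of 10 TGF-beta pathway genes, 2 were higher and 3 lower in TAZKo in normoxia and 3 and 4 in hypoxia, with the signal transducer Smad2 first (-0.47 ± 0.0619 and -0.48 ± 0.0618, adjusted p = 6.93e-05 and 5.55e-05). Hypoxia raised 5 and lowered 3 in WT and raised 4 and lowered 2 in TAZKo, and the ligand gene Tgfb3 fell (-1.35 ± 0.128 and -0.93 ± 0.127, adjusted p = 1.4e-06 and 5.51e-05).

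Among the 9 genes themselves, levels over the 12 libraries fell into more than 1 pattern, given here as a description, since the libraries share their groups. Tagln and Cnn1 were the most alike pair (Pearson r of log2 CPM 0.92), and Tagln and Myl9 stood at 0.86. Cnn2 and Tpm2 were alike at 0.86, and Cnn2 and Myl9 opposed at -0.87. Acta2 ran against Tagln2 (-0.84) and against Cnn1 (-0.72) and Tagln (-0.65), fellow markers of the contractile state, and was most like Tpm1 (0.7). Among 9431 tested genes with a mean of at least 10 CPM, those most like Acta2 over the 12 libraries were Igsf3 (0.977), Nedd9 (0.971), Rab3d (0.967), Dtymk (0.964) and Shf (0.962). The genes most like Tagln were Ckap2 (0.975), Tm7sf2 (0.974), Nxf1 (0.972), Fbxo38 (0.971) and Ncapd3 (0.965). For Cnn1 they were Dhcr7 (0.973), Ptgs2 (0.971), Acat2 (0.971), Rnf6 (0.97) and Edn1 (0.97). Nedd9, a scaffold of focal adhesions, was at 70.7, 78.7, 44.0 and 44.8 CPM on average, the first pair being WT and TAZKo in normoxia and the second pair WT and TAZKo in hypoxia. Edn1, which encodes the vasoconstrictor endothelin 1, was at 15.2, 10.0, 47.0 and 16.4 CPM in the same order, and Dhcr7 and Acat2, enzymes of sterol metabolism, were at 43.6, 37.5, 93.5 and 49.1 and at 62.9, 48.2, 208 and 80.1 CPM. Each gene is named for its pattern over groups alone.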

How the data were processed

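The authors deposited 1 table of whole-number read counts per Ensembl gene for each of 12 libraries, made from total RNA with the TruSeq RNA v2 kit, per the labels' protocols. The genome build was mm10, per the submitters' processing notes, and the aligner, the counter and the annotation release are not given in the sources used here. Of 48709 gene IDs, 48349 were matched to symbols and coordinates in GENCODE M21 on GRCm38, the same assembly. Total counts ran from 21039451 to 31204510 per library. Counting floors of 3 counts cover counting error only.

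Groups came from the sample labels, 3 libraries each. Genes were filtered with filterByExpr, scaled by TMM and fitted in R 4.3.3 with edgeR 4.0.16, which uses limma 3.58.1, giving each group a coefficient and keeping all 12 libraries in 1 model. The quasi-likelihood test gave 4 comparisons of groups and the interaction, with Benjamini-Hochberg adjustment over 14408 genes. SEs were derived from each log2 difference and its F statistic. CPM values are TMM-scaled. The script was tested on simulated counts. Correlations used log2 of CPM plus 0.5. Levels per kb used the union of a gene's exons. Words of 50 bases of each longest transcript were looked up in all other transcripts. Alternatives were DESeq2 1.42.0, other scalings and filters, the replicate block, the lane named with each deposited table, fits of 6 libraries, and fits without each library. Those for genes outside the 10 were added after seeing the data. In both genotypes, normoxia samples 1 and 2 and hypoxia sample 1 came from lane 4. Normoxia sample 3 and hypoxia samples 2 and 3 came from lane 5, so lane was not balanced between normoxia and hypoxia.

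The 10 genes and the lists were chosen with earlier results of these data known. By rule the text names these 10, Taz, all genes of SRF and its cofactors, in each other list and comparison the gene with the lowest adjusted p under 0.05, and the 5 genes most like Acta2, Tagln and Cnn1. Some results of the lists are not reported here. Genes with a called interaction, the paralogs Actb, Tpm3, Myl12a and Myl12b, and further values of Ccn1, Ccn2, Nedd9, Edn1, Dhcr7 and Acat2 were chosen after their values were seen. Titles number the samples 1 to 3 in each group. Deviations of same-numbered samples from their group means correlated at 0.354, 0.149 and 0.228 for TAZKo against WT in normoxia. For hypoxia against normoxia in WT they correlated at 0.368, 0.204 and 0.152. Sample 2 of 1 group against sample 3 of the other gave 0.116 and 0.112 in the first comparison and 0.147 and 0.18 in the second. The numbers thus set sample 1 apart there, and a pairing of samples 2 and 3 was not shown. The reported fit did not use the numbers, which enter only the replicate block. Same-numbered samples reached -0.024 at the lowest in both other comparisons. Within a condition, same-numbered WT and TAZKo samples also shared a lane.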

Additional observations from a re-analysis of the deposited data

Results flagged for a closer look

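The interaction, the hypoxia response in TAZKo minus that in WT, was called for none of the contractile genes and is given here for 12 called genes of the pathway lists. Another called gene of these lists is not reported here. In the marker lists it was called for Synm (-0.9). Among SRF targets the log2 values were -1.78 for Fos, -1.75 for Ccn2, -1.60 for Ccn1, -1.53 for Fosb, -1.37 for Ier2, -1.16 for Ankrd1, -1.15 for Egr1, -0.75 for Junb and -0.57 for Filip1l. The actin gene Actg1 stood at -1.09, and the LIM protein genes Fhl2 and Fhl1 at -0.56 and -0.53. The value of Actg1 is uncertain, with group means of 2.67 to 8.97 CPM and 56.7% of its 50-base words shared. Each passed an adjusted p of 0.05 in edgeR's quasi-likelihood test, from 1.22e-05 for Ccn1 to 0.044 for Junb. In edgeR the Junb call did not pass with DESeq2 size factors (adjusted p = 0.0549) or upper quartile scaling (0.0596). Nor did it pass with library size alone (0.0536) or a mean of at least 5 CPM (0.0545). Levels show the difference for Fos, a subunit of the AP-1 factor: in normoxia 2.51 ± 0.356 CPM (WT) and 5.14 ± 0.837 CPM (TAZKo), and in hypoxia 13.1 ± 3.35 and 7.93 ± 1.14 CPM (SD, n = 3). Ier2, an immediate early gene, was at 13.5 ± 2.11, 32.8 ± 1.07, 24.4 ± 2.95 and 22.9 ± 0.593 CPM in the same order. It rose with hypoxia in WT (log2 difference 0.85 ± 0.108, SE, adjusted p = 1.98e-05) and fell in TAZKo (-0.52 ± 0.102, adjusted p = 0.00105).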

How the results depend on the processing

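Of 540 values of member differences in fits that each left out 1 library, 489 kept direction and side of the threshold, 36 no longer passed, 3 newly passed and 12 changed sign; of 386 values under the other alternatives these numbers were 357, 16, 9 and 4. Without 1 library, 4 to 7 of the 9 contractile genes were called between genotypes in normoxia, with 4 when TAZKo normoxia sample 3 was left out, and Tagln2, Tpm1 and Cald1 were then not called. With a mean of at least 5 CPM required, 3 were called between genotypes in hypoxia, since Tagln and Cnn1 were then not tested. The values that changed sign had not passed in the reported fit: Cnn2 in TAZKo hypoxia was -0.04 with library size alone, as was Ccn1 (-0.04), the interaction of Myl9 was 0.004 with no filter, and that of Tpm2 was 0.0005 with upper quartile scaling and 0.01 with no filter. Over the fits without 1 library, Acta2 between genotypes in hypoxia ranged from -0.08 to 0.23, Tpm1 with hypoxia in WT from -0.08 to 0.02, Ccn1 with hypoxia in TAZKo from -0.004 to 0.05, and the interaction of Acta2 from -0.3 to 0.01, of Tagln2 from -0.01 to 0.09, of Myl9 from -0.15 to 0.2, of Tpm2 from -0.15 to 0.05 and of Srf from -0.03 to 0.09. The interaction called 350 of all genes, against 727 with no filter, 574 with DESeq2 and 174 to 711 without 1 library. The cause of these shifts was not tested. Library size alone moved the median hypoxia difference of all genes to -0.097 in WT and -0.103 in TAZKo, and the calls in WT from 3750 higher and 3605 lower to 2966 and 4817, in TAZKo from 3198 and 3111 to 2470 and 4393.

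With the replicate block, no call of a contractile gene changed between genotypes in normoxia (7 called) or for hypoxia in WT (8 called). In the others Tagln2 passed between genotypes in hypoxia (-0.14, adjusted p = 0.035, 6 called), Cald1 passed for hypoxia in TAZKo (0.28, adjusted p = 0.00317) and Tagln did not (0.42, adjusted p = 0.0526), which left 7 called. The interaction called 0 of the 9 and 639 of all genes. With the lane as a covariate, Tagln2 passed between genotypes in hypoxia (adjusted p = 0.0443) and Tagln did not with hypoxia in TAZKo (adjusted p = 0.0523). Other lost calls were Cnn2 with hypoxia in WT with upper quartile scaling, library size alone, no filter or 6 libraries (0.14 to 0.20), Tpm1 between genotypes in normoxia with no filter (0.15, adjusted p = 0.159), and Tagln2, Cald1 and Taz between genotypes in normoxia in the fit of 6 libraries (adjusted p = 0.0868, 0.0898 and 0.0559). Tagln with hypoxia in TAZKo was lost in 7 of the other alternatives (0.32 to 0.43). Depth limits Cnn1 and Actg2, with 5 and 0 counts in their lowest libraries.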
